A study of Rattus norvegicus with 4 samples.

Results

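The genes described here set the pace of the G1 phase of the cell cycle: the cyclin-dependent kinase (CDK) inhibitors Cdkn1a (p21) and Cdkn1b (p27), the D-type cyclins Ccnd1, Ccnd2 and Ccnd3, their kinase Cdk4, cyclin E1 (Ccne1) with its kinase Cdk2, and the retinoblastoma gene Rb1. They were taken as every probe set that the platform annotation pairs with exactly 1 gene symbol, where that symbol is one of these 9 genes. The 9 genes, of 4736 with such a probe set, had 21 probe sets of the 8799 in the table, and 17 of the 21, covering 8 of the 9 genes, were bright enough to be tested. The genes were chosen by their shared role and with earlier antibody and control values of these same arrays known, a lower value of Ccnd2 among them. The differences between antibody and control arrays below are therefore a description of these probe sets, and the p-values say where a probe set stands in a fit over the whole table.

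In G1 a cell decides whether to divide again. D-type cyclins are made in response to growth signals and activate Cdk4, cyclin E then activates Cdk2, and together these kinases phosphorylate the retinoblastoma protein, which releases the E2F factors that start DNA replication. Cdkn1a and Cdkn1b bind the cyclin and CDK complexes and restrain them. In the testis, follicle-stimulating hormone (FSH) acts through its receptor on Sertoli cells, which divide in early life and stop before puberty, while spermatogonia go on dividing.

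The samples were testis RNA of male rats of the outbred Sprague Dawley strain, in 2 groups. The FSH antibody group (2 arrays) had been injected for 4 days with an antibody against rat FSH that was raised in sheep, and the control IgG group (2 arrays) had received sheep control immunoglobulin for the same time. The source names of all 4 arrays give postnatal day 18 and the treatment protocol starts the injections at day 18 and collects at day 22, whereas the series design puts the start at day 14 and antibody replicate 2 is titled postnatal day 4. The age at collection is therefore not settled, and the group of that array rests on its source name. The extraction protocol speaks of some 20 pooled organs per RNA sample and calls them ovaries, whereas the source names give testis and a single rat each. P-values therefore measure how far these RNA samples differ, whatever number of animals each holds, and having only 4 arrays limits all precision.

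Each sample was hybridised to an Affymetrix rat U34 array of set A, and the values are linear intensities per probe set. Median intensities were 38.8 and 40.4 on the antibody arrays and 39.2 and 36.5 on the control arrays. Testis markers were read on all arrays: the Sertoli product Clu lay between 6439.6 and 7459.2 on the antibody arrays and was 6776.2 and 6770.0 on the control arrays, and the synaptonemal gene Sycp3 was 795.0 and 574.2 on the antibody arrays and 750.6 and 922.3 on the control arrays. The aromatase gene Cyp19a1, expressed in granulosa cells of the ovary, lay at 2.9 and 7.7 on the antibody arrays and at 4.2 and 10.2 on the control arrays, too dim to be tested. Of the other ovarian markers, Fst and Zp3 were also too dim. Zp2 had 103.8 and 100.5 on the antibody arrays and 84.5 and 91.0 on the control arrays. Zp1 had 57.2 and 69.9 on the antibody arrays and 51.6 and 37.5 on the control arrays, and both were tested.

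Cdkn1a showed the lowest antibody values relative to the control of all the genes described here. Cdkn1a encodes p21, an inhibitor of cyclin and CDK complexes that is induced by p53 and when cells leave the cycle. Its probe set U24174_at had an intensity of 22.4 and 25.5 on the antibody arrays, against 55.3 and 78.5 on the control arrays. The probe set L41275cds_s_at had 12.1 and 16.2 on the antibody arrays, against 45.0 and 41.3 on the control arrays. Both antibody arrays thus lay below both control arrays on each probe set, with mean intensities 2.79 and 3.05 times higher in the controls.

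Differences were fitted as log2(intensity + 16), a scale on which dim probe sets appear to change less than they do. The difference for Cdkn1a (antibody minus control) was −1.04 ± 0.21 (SE) on U24174_at and −0.97 ± 0.21 on L41275cds_s_at. Over all 5244 tested probe sets these stood at ranks 25 and 30 from the lowest difference. Neither passed the adjusted threshold of 0.05 by limma with Benjamini-Hochberg adjustment (adjusted p = 0.122 and 0.149), so with 2 arrays against 2 the difference is not established over the whole table. L41275cds_s_at cleared the level set for testing, a mean log2 value of 5.308, through its control arrays alone. Without antibody replicate 1 or 2, the difference was −0.98 and −1.10 on U24174_at, and −0.88 and −1.07 on L41275cds_s_at. Without control replicate 1 or 2, it was −1.24 and −0.84 on U24174_at, and L41275cds_s_at fell under the testing level. Such fits take the spread of the single array's group from the other group, so no p-value is read from them. In RNA of a whole organ, fewer cells of a type and less RNA per cell cannot be told apart.

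The Cdkn1a gene lies on chromosome 20 at 7150820 to 7161373 on the RefSeq assembly GRCr8, and Cdk4 on chromosome 7 at 64771453 to 64774891. The sequences upstream of these genes are shown because Cdkn1a had the lowest relative values after the antibody while Cdk4, a kinase it inhibits, did not. For Cdkn1a the stretch is chr20:7150682-7150819 and for Cdk4 chr7:64771203-64771452, both on the plus strand and from RefSeq on GRCr8. Capitals mark the letters TGACG (the core of a cAMP response element), CACGTG (an E box) and GGGCGG (a GC box) on either strand.
Cdkn1a: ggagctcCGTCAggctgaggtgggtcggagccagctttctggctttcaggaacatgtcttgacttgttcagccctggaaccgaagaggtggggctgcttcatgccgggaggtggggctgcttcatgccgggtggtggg
Cdk4: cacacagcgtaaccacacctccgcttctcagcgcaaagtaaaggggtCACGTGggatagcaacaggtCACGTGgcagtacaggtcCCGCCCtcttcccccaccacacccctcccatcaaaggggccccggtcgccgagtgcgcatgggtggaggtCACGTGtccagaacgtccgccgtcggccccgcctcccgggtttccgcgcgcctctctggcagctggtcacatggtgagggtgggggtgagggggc

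In the 250 bases before the start, Cdkn1a held 1 TGACG on the minus strand, read as CGTCA above, and Cdk4 held 3 CACGTG and 1 GGGCGG. The same letters occur in 18.2% (TGACG), 5.59% (CACGTG) and 30.5% (GGGCGG) of 33469 rat promoter windows of that length. The full cAMP response element TGACGTCA, which contains TGACG and occurs in 1.59% of windows, was in neither. Nor were TATAAA (12.9% of windows) or the E2F spellings TTTCCCGC, TTTGGCGC, TTTCGCGC and TTTGCCGC (1.73% for any of them). The table held promoters for 7 of the 9 genes. The start used in it lies 112 bases inside the RefSeq interval of Cdkn1a, and that stretch was searched but is not shown.

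Cdkn1b could not be read on these arrays. It encodes p27, the inhibitor whose loss in mice gives enlarged testes with more Sertoli cells. Its single probe set D83792_at had 3.2 and 3.7 on the antibody arrays and 3.5 and 3.8 on the control arrays, below the level for testing in both groups. Values that low are a statement about the probe set and give no direction for the transcript.

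**Figure D1:**
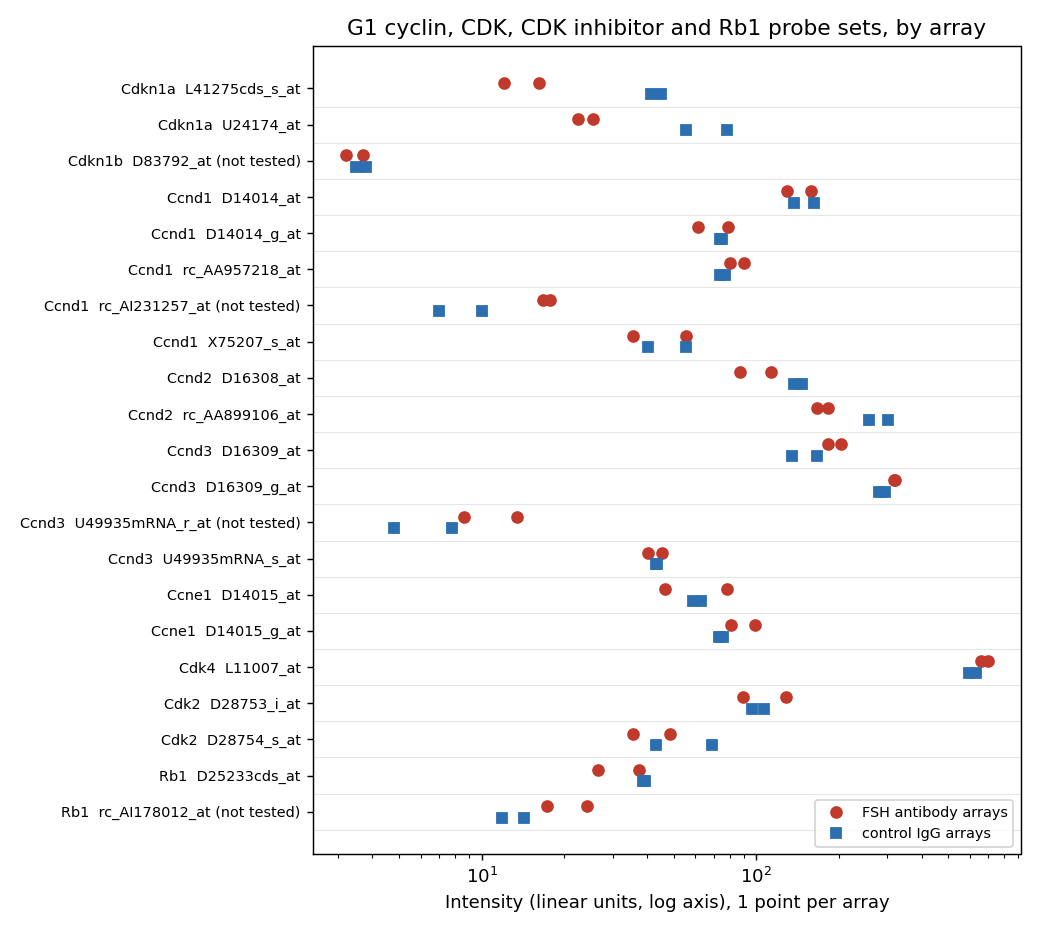
Intensity of each of the 21 probe sets (rows) on each array, on a log axis, with red circles for the 2 FSH antibody arrays and blue squares for the 2 control IgG arrays. Cdkn1a and Ccnd2 have both antibody arrays left of both control arrays on each of their probe sets, and Cdkn1b (D83792_at) lies between 3.2 and 3.8 on every array.

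Ccnd2 was the D-type cyclin with lower values after the antibody. It encodes cyclin D2, which in mice is induced by FSH in granulosa cells and whose loss leaves females sterile and males with small testes. The probe set rc_AA899106_at had 165.7 and 181.7 on the antibody arrays, against 256.3 and 302.8 on the control arrays. The probe set D16308_at had 86.9 and 113.2 on the antibody arrays, against 147.3 and 137.2 on the control arrays. Neither probe set overlapped between the groups.

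The fitted Ccnd2 difference was −0.64 ± 0.17 on rc_AA899106_at, with a 95% interval from −1.03 to −0.24, and −0.46 ± 0.18 on D16308_at, with an interval from −0.87 to −0.04. Neither passed over all tested probe sets by limma (adjusted p = 0.305 and 0.575). On the linear scale the antibody mean was 0.621 and 0.704 of the control mean. The difference on D16308_at depended on antibody replicate 1, the lower of its antibody arrays: it was −0.29 without that array.

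Ccnd3, which encodes cyclin D3, had higher values after the antibody on its brighter probe sets, by less than for Ccnd2. Neither passed the adjusted threshold, and the difference on D16309_g_at was smaller than its error (limma adjusted p = 0.878). D16309_g_at had 315.8 and 320.3 on the antibody arrays, against 293.4 and 279.2 on the control arrays, a difference of 0.14 ± 0.16. D16309_at, designed from the same sequence and so not independent of it, had 203.0 and 182.7 on the antibody arrays, against 166.8 and 134.4 on the control arrays, a difference of 0.33 ± 0.18 (adjusted p = 0.691). U49935mRNA_s_at, from another sequence record, had 45.4 and 40.5 on the antibody arrays and 43.2 and 43.5 on the control arrays, a difference of −0.01 ± 0.19 whose 95% interval ran from −0.44 to 0.42. The dim U49935mRNA_r_at was not tested, with 13.5 and 8.6 on the antibody arrays and 4.8 and 7.8 on the control arrays. U49935mRNA_s_at thus stood at 0 within its error, while the other Ccnd3 probe sets were higher on the antibody arrays without overlap. Such a separation with the antibody higher was found for 21.9% of all tested probe sets.

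Ccnd1, which encodes cyclin D1, had differences near 0 on its tested probe sets. D14014_at, the brightest, had 129.2 and 158.8 on the antibody arrays and 162.6 and 137.0 on the control arrays, which overlap, with a difference of −0.05 ± 0.18 and a 95% interval from −0.47 to 0.36. The other tested Ccnd1 probe sets gave −0.08 ± 0.19 (D14014_g_at), −0.06 ± 0.23 (X75207_s_at) and 0.15 ± 0.17 (rc_AA957218_at), with adjusted p from 0.883 to 0.969 by limma over all 4. The intervals of D14014_at, D14014_g_at and X75207_s_at include a difference as low as that of Ccnd2 on D16308_at, whereas that of rc_AA957218_at, from −0.25 to 0.54, does not. The untested probe set rc_AI231257_at had 16.8 and 17.7 on the antibody arrays, against 7.0 and 10.0 on the control arrays, and stood below the testing level in both groups.

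The kinases and Ccne1 showed no difference that stood out from the spread. Cdk4, the catalytic partner of the D-type cyclins, had 658.5 and 699.3 on the antibody arrays, against 630.2 and 593.2 on the control arrays. The antibody arrays were higher without overlap, but the difference of 0.15 ± 0.16 (95% interval −0.22 to 0.51, limma adjusted p = 0.871) was smaller than its error. Ccne1, the cyclin that drives entry into S phase, had 80.6 and 99.2 on the antibody arrays and 72.9 and 75.4 on the control arrays by D14015_g_at (0.23 ± 0.18), and 46.5 and 78.5 on the antibody arrays and 58.6 and 63.0 on the control arrays by D14015_at (0.0016 ± 0.22). Both Ccne1 probe sets come from the same sequence record and disagree within 1 array, since antibody replicate 1 was the lowest of the 4 arrays on D14015_at and the second highest on D14015_g_at.

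Cdk2, the partner of cyclin E, overlapped between groups on both probe sets. D28753_i_at had 89.8 and 128.0 on the antibody arrays and 106.8 and 96.1 on the control arrays (0.07 ± 0.20), and D28754_s_at had 48.4 and 35.5 on the antibody arrays and 43.1 and 68.8 on the control arrays (−0.30 ± 0.23). The probe sets point in opposite directions, with adjusted p of 0.957 and 0.822 by limma. Rb1, the brake that these kinases release, had 26.5 and 37.4 on the antibody arrays, against 39.5 and 38.8 on the control arrays by D25233cds_at, a difference of −0.21 ± 0.21 (limma adjusted p = 0.860). Its other probe set, rc_AI178012_at, was higher on the antibody arrays (17.3 and 24.3, against 14.3 and 11.9 on the control arrays) and too dim to be tested.

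**Figure D2:**
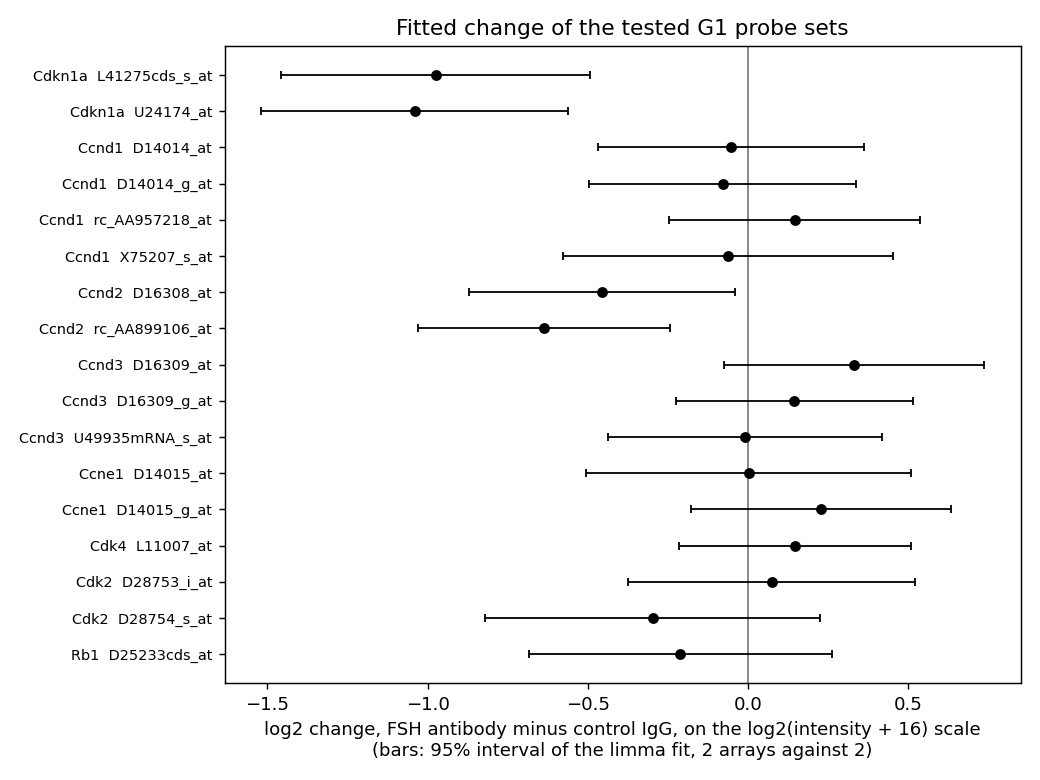
Fitted log2 change (FSH antibody minus control IgG) of the 17 tested probe sets, with 95% intervals of the limma fit over 2 arrays against 2. The intervals of the Cdkn1a and Ccnd2 probe sets lie below 0, from −1.52 to −0.04 in all, while those of the other 13 probe sets include 0.

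In all, 0 of the 17 tested probe sets passed the adjusted threshold, where 14 of all 5244 tested probe sets did (0.267%). Those 14 were 6 higher and 8 lower, and 3 higher and 1 lower when each array was centred on its median. At an unadjusted p under 0.05 by limma, 4 of the 17 were lower, the probe sets of Cdkn1a and Ccnd2, against 4.14% of all tested probe sets, and 0 were higher, against 3.97%. A lower fitted value by at least 1.5-fold was found for 3 of the 17 (both of Cdkn1a and rc_AA899106_at of Ccnd2), against 2.48% of all tested. The groups did not overlap with the antibody lower for 5 of the 17 (15.5% of all tested) and with the antibody higher for 5 (21.9% of all tested), 37.4% of all tested probe sets being separate in either direction. Since this contrast was in view when the genes were chosen, nothing is read from these counts.

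The median difference of the 17 probe sets was −0.05, against 0.03 for all tested probe sets, and 7 had higher and 10 lower values. The median of the absolute differences was 0.15 for the 17 and 0.16 for all tested. Without the 4 probe sets of Cdkn1a and Ccnd2, the remaining 13 ranged from −0.30 to 0.33 with a median of 0.0016. Of the genes with several tested probe sets, Cdkn1a and Ccnd2 had lower values on each of theirs. Ccnd1 and Cdk2 had differences on both sides of 0. Ccnd3 had a positive difference on 2 probe sets, though that on D16309_g_at (0.14 ± 0.16) was smaller than its error, and Ccne1 on 1. Ccnd3 and Ccne1 each had a value at 0 within its error on the remaining tested probe set.

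The arrays of a group also differed among themselves in a way that does not use the contrast. The gap between the 2 antibody arrays, in log2 units, had a median of 0.25 over the 17 probe sets and 0.20 over all tested ones. The gap between the 2 control arrays had a median of 0.09 over the 17 and 0.19 over all tested. The widest antibody gap was 0.60, for Ccne1 on D14015_at, and the widest control gap was 0.52, for Cdk2 on D28754_s_at. For Cdkn1a the wider gap, 0.41, was between the control arrays on U24174_at, and it was smaller than the difference between the groups there.

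**Figure D3:**
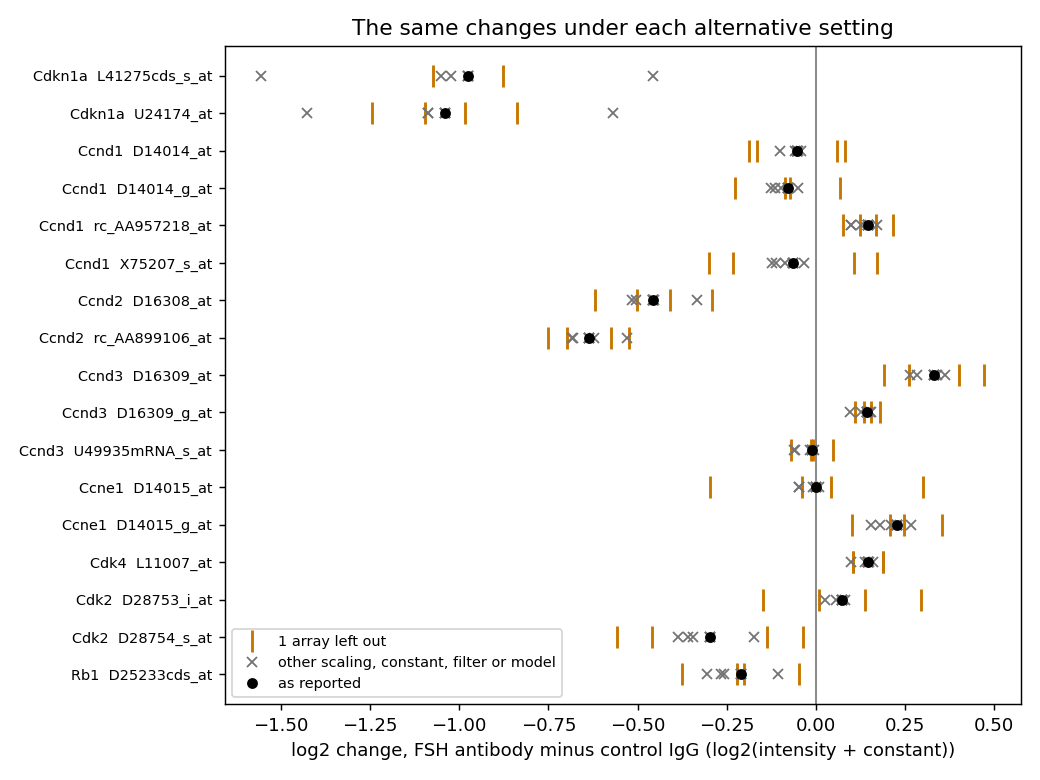
The log2 change (FSH antibody minus control IgG) of each tested probe set as reported (black circles), with 1 array left out (orange bars) and under the other scalings, constants, filters and models (grey crosses). Cdkn1a and Ccnd2 stay below 0 in each setting in which they were tested, while 6 probe sets, of Ccnd1, Ccnd3, Ccne1 and Cdk2, have values on both sides of 0.

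Other genes of the cycle were compared through lists, with 1 probe set per gene, the brightest tested. None of the 52 tested genes in these lists passed in either direction by limma (smallest adjusted p 0.575), where 3 of 3164 tested genes were called higher and 6 lower (0.284% in all). At an unadjusted p under 0.05, 3 of the 52 were higher and 1 lower, against 3.98% of all tested genes higher and 3.89% lower, which is near the background. The median difference was 0.01 over the 52 genes and 0.03 over all 3164.

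Of the partners of G1 regulators, 9 of 28 listed genes were tested, with a median of 0.03. Mycn, a growth-promoting transcription factor, was lower, with 75.4 and 74.4 on the antibody arrays, against 112.9 and 99.3 on the control arrays (−0.42 ± 0.17, adjusted p = 0.575). Rbl2, the retinoblastoma relative p130 of resting cells, had 248.3 and 222.3 on the antibody arrays, against 164.6 and 187.2 on the control arrays (0.39 ± 0.17, adjusted p = 0.611). Myc gave 0.45 ± 0.23 on the brighter of its probe sets and was at 6.3 to 9.6 on the other, which was not tested. Of the other CDK inhibitors, Cdkn2b (p15) gave −0.18 ± 0.21 and Cdkn1c (p57) was too dim to be tested.

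The downstream steps of the cycle showed small differences. Among S phase and replication genes (13 of 24 listed were tested, median 0.08) the helicase subunit Mcm6 gave 0.26 ± 0.16, the polymerase subunit Pold1 0.23 ± 0.17 and the helicase subunit Mcm5 −0.21 ± 0.17. Pcna, the sliding clamp of DNA polymerase, had 1078.3 and 1175.2 on the antibody arrays and 1161.3 and 1318.8 on the control arrays on its brighter probe set, a difference of −0.13 ± 0.16. Among genes of G2 and mitosis (11 of 21 listed were tested, median −0.09) 10 of 11 had lower values on their brightest probe set, all by 0.24 or less, against 44.2% of all tested genes with lower values. Aurkb, a mitotic kinase, gave −0.24 ± 0.22, and Ccnb1, cyclin B1, gave 0.20 ± 0.18. Hmgb2, a chromatin protein, gave −0.16 ± 0.18 on its brightest probe set. Its other tested probe set, D84418_r_at, had 81.2 and 33.4 on the antibody arrays and 158.0 and 74.8 on the control arrays, which overlap, with a difference of −0.86 ± 0.36 (limma adjusted p = 0.581). The smallest adjusted p in these lists was 0.730 for S phase and 0.846 for G2 and mitosis by limma.

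Beside Cdkn1a, the other targets of p53 were read. Of 9 listed genes 3 were tested, and none passed: Ccng1 gave 0.22 ± 0.17, Mdm2 0.12 ± 0.18 and Gadd45a 0.06 ± 0.20 on their brightest probe sets. Values of the other tested probe sets differed, from −1.21 ± 0.60 to −0.13 ± 0.22 for Gadd45a and from −0.50 ± 0.39 to 0.09 ± 0.17 for Mdm2. The widest of these, rc_AI070295_at of Gadd45a, had 14.5 and 56.5 on the antibody arrays and 35.7 and 214.4 on the control arrays, so its control arrays differed more than its groups.

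In the signalling from the FSH receptor towards G1, 16 of 22 listed genes were tested, with a median of 0.09 and no call (smallest adjusted p 0.584 by limma). Map2k2, a kinase of the ERK cascade, had 951.8 and 772.3 on the antibody arrays, against 657.3 and 620.8 on the control arrays (0.42 ± 0.17), with 0.35 and 0.22 on the other probe sets of the gene. Tsc2, which restrains the mTOR kinase, gave 0.39 ± 0.17. Akt2 gave 0.18 ± 0.19 on its brightest probe set. Its other probe set, rc_AI105076_s_at, had 65.6 and 37.9 on the antibody arrays, against 88.6 and 98.2 on the control arrays. The difference there was −0.72 ± 0.22 (limma adjusted p = 0.44). Crem, a cAMP-responsive transcription factor, had lower values on each of its 4 probe sets, with 114.0 and 108.0 on the antibody arrays, against 149.8 and 139.9 on the control arrays, on the brightest (−0.34 ± 0.17, adjusted p = 0.648). The receptor gene Fshr was at 114.0 and 71.6 on the antibody arrays and at 67.9 and 74.1 on the control arrays (0.30 ± 0.22).

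**Figure D4:**
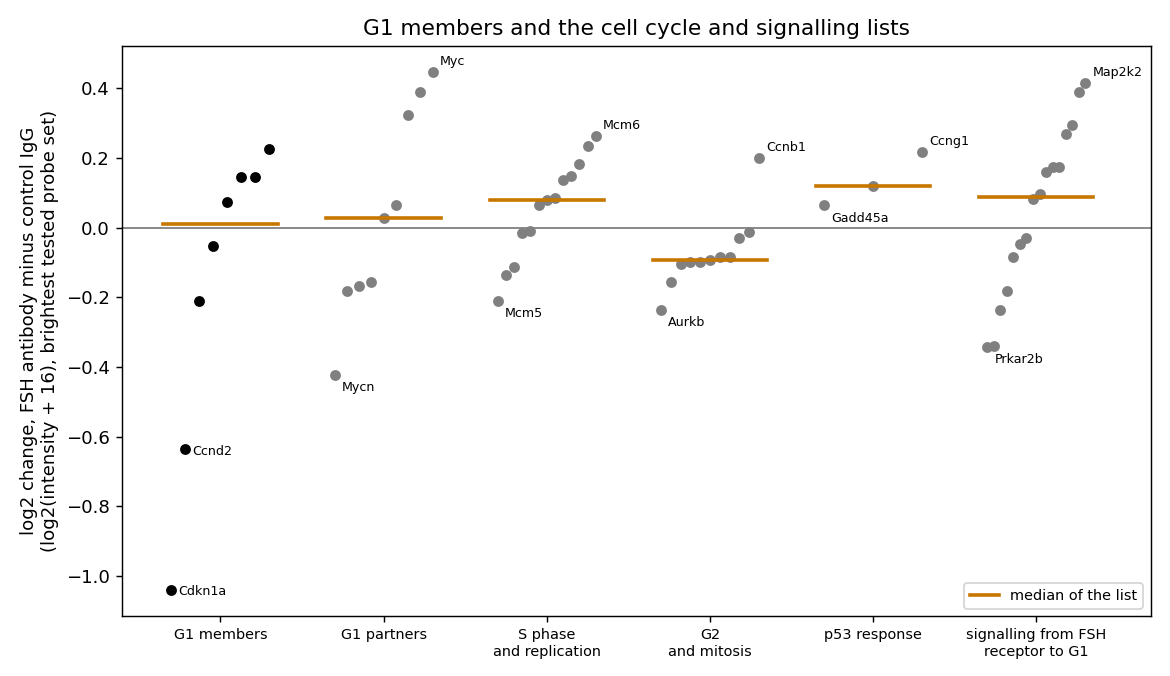
Fitted log2 change (FSH antibody minus control IgG) of the G1 genes described here (black) and of the genes in 5 lists (grey), 1 point per gene from its brightest tested probe set, with orange lines at each list's median. On these probe sets Cdkn1a and Ccnd2 lie below every gene of the lists, whose values run from −0.42 to 0.45. The G1 genes were chosen with this contrast in view, so nothing is read from that place. The list medians lie between −0.09 and 0.12. Other tested probe sets of Akt2 (−0.72), Hmgb2 (−0.86) and Gadd45a (−1.21), which are not drawn, lie below Ccnd2.

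The profile of Ccnd2 on rc_AA899106_at was compared with the 4341 other tested probe sets that have 1 gene symbol, by the root mean square difference of centred log2 values over the 4 arrays. The 5 closest probe sets of other genes were those of Pde4b (a cAMP phosphodiesterase, 0.043), Cd151 (a membrane tetraspanin, 0.052), Gja1 (the gap junction protein connexin 43, 0.054), Hsph1 (a chaperone, 0.055) and Rbm24 (an RNA-binding protein, 0.064). Their differences ran from −0.74 to −0.59, with both antibody arrays below both control arrays, a direction and size that follow from choosing them by likeness to Ccnd2. The second Ccnd2 probe set, D16308_at, stood farther away at 0.16, with 74 of these probe sets closer. Over only 4 arrays, the profile of a Ccnd2 probe set was thus matched more closely by probe sets of other genes than by the other probe set of Ccnd2.

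Markers of the cell types of the testis were summed over their probe sets on each array. Sertoli markers (9 of 13 on the array) summed to 11770 and 12230 on the antibody arrays and to 13050 and 12660 on the control arrays, and stayed lower without Clu, which carries most of the sum. Of the 9 tested genes 4 had higher and 5 lower values, with a median of −0.06. Inha, on its brighter probe set, and Shbg had the lowest relative values (−0.90 ± 0.19 and −0.66 ± 0.16, limma adjusted p = 0.122 and 0.218). The other Inha probe set, M32754cds_s_at, gave −0.49 ± 0.24 (limma adjusted p = 0.632). It had 501.2 and 502.7 on the antibody arrays, against 544.2 and 927.4 on the control arrays. Amh, the anti-Müllerian hormone of immature Sertoli cells, had 753.6 and 758.1 on the antibody arrays, against 544.4 and 498.4 on the control arrays (0.52 ± 0.16, limma adjusted p = 0.437). Spermatogonia markers (5 of 10) summed to 3586 and 3556 on the antibody arrays and to 3477 and 3210 on the control arrays. Meiotic markers (9 of 13) summed to 1696 and 1092 on the antibody arrays and to 1362 and 2180 on the control arrays, with no separation of the groups.

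Leydig markers (5 of 8) summed to 1830 and 2061 on the antibody arrays and to 2180 and 2088 on the control arrays, but most of that sum was Cyp17a1, and without it the sums were 469.3 and 407.4 on the antibody arrays and 449.2 and 437.2 on the control arrays, which overlap. Leaving out the gene with the largest sum was chosen after seeing the data. Star, which moves cholesterol into mitochondria, was called lower on its brighter probe set (−1.49 ± 0.23, limma adjusted p = 0.0423) and not on the other (−1.38 ± 0.25, adjusted p = 0.0655). The brighter had 25.5 and 12.8 on the antibody arrays, against 75.9 and 86.2 on the control arrays. Both Star probe sets cleared the level set for testing through their control arrays alone, so nothing is read from the call. Cyp11a1, the side-chain cleavage enzyme, gave 0.52 ± 0.21 and Hsd11b1 0.42 ± 0.23, with the antibody arrays higher without overlap and adjusted p of 0.575 and 0.682 by limma. The LH receptor gene Lhcgr gave −0.22 ± 0.20 on its brightest probe set, which overlapped between the groups, and 0.46 ± 0.18 and 0.24 ± 0.21 on the other tested ones. Spermatid markers (8 of 9) summed to 450.6 and 406.8 on the antibody arrays and to 309.2 and 635.6 on the control arrays, and peritubular and smooth muscle markers (7 of 7) to 6135 and 4567 on the antibody arrays and 5400 and 5781 on the control arrays. Macrophage markers (5 of 7) summed to 342.5 and 482.9 on the antibody arrays and to 305.1 and 345.5 on the control arrays. Endothelial markers (6 of 7) summed to 427.1 and 502.7 on the antibody arrays, against 317.9 and 347.4 on the control arrays. Erythroid markers (4 of 6) summed to 1892 and 2230 on the antibody arrays and to 2081 and 3606 on the control arrays, with Alas2, a heme synthesis enzyme, called lower (−1.38 ± 0.21, limma adjusted p = 0.0423). The calls of Star and Alas2 were lost with quantile normalization (adjusted p = 0.113 and 0.117), with median centring (0.0734 and 0.079), with a constant of 1 (0.057 and 0.0514), with no filter (0.224 for both), without control replicate 1 (0.392 and 0.359) and without control replicate 2 (0.634 for both), and that of Alas2 also with no intensity trend (0.0611). Ovarian markers (5 of 8) summed to 196.6 and 214.1 on the antibody arrays and to 172.6 and 158.3 on the control arrays. No marker was listed at 0 on any array. The sums of the Sertoli and Leydig lists were lower, and those of the spermatogonia, endothelial and ovarian lists higher, without overlap between the groups. These sums thus separated by group, as Cdkn1a and Ccnd2 did, but only the Sertoli and Leydig sums did so in the same direction. The Sertoli sum changed by −0.10 in log2 units, and by −0.27 without Clu, where the groups still did not overlap. The Leydig sum changed by −0.14, and by −0.02 without Cyp17a1, where the groups overlapped. The part of cell types in the Cdkn1a and Ccnd2 differences was not tested.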

How the data were processed

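Per the labels, total RNA was biotin-labelled by the standard Affymetrix protocol and hybridised to 4 arrays, 2 per group. The authors deposited a linear intensity for every probe set. Which software summarised, background-corrected and scaled them is not stated in these sources. With the top and bottom 2% of probe sets removed, array means lay between 124.59 and 124.87, so the deposited arrays already share 1 scale. The scale is linear, the background correction is unknown, and no detection calls were used.

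Of 8799 probe sets 59 controls were left out. A platform annotation gave 1 symbol for 7006 probe sets (6985 updated through the Entrez identifier with RefSeq, GRCr8), several for 308 and none for the rest; none of the 308 named a gene described here. Probe positions in the genome were not used here.

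Intensities were transformed to log2(intensity + 16), and the 5244 probe sets whose mean reached the 40th percentile were tested by limma 3.58.1 (lmFit, eBayes with an intensity trend) in R 4.3.3. Tests were two-sided and adjusted over all of these probe sets by Benjamini-Hochberg. Untested probe sets have values only. Functions were tested on simulated data. Named genes are all probe sets of the 9 genes, the 3 smallest p of each list, the markers and the 5 probe sets most like Ccnd2. Pcna, Cdkn2b, Cdkn1c, Fshr and Akt2 were added after their values were seen. The members and lists were chosen with earlier results of these data known. Alternatives were quantile normalization, median centring, a constant of 1 or 64, no filter or the 60th percentile, no trend, leaving out each array and the replicate number as a block.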

Additional observations from a re-analysis of the deposited data

How the results depend on the processing

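Of the 17 tested probe sets, 11 kept their direction under each of the 12 alternatives that tested them, Cdkn1a and Ccnd2 among them; most settings could hardly turn those, since their groups do not overlap. The other 6 lie near 0: leaving out 1 array gave −0.187 to 0.0806 for Ccnd1 D14014_at, −0.226 to 0.0671 for D14014_g_at, −0.30 to 0.17 for X75207_s_at, −0.071 to 0.049 for Ccnd3 U49935mRNA_s_at, −0.30 to 0.30 for Ccne1 D14015_at and −0.15 to 0.30 for Cdk2 D28753_i_at. Ccne1 D14015_at was also −0.0461 with quantile normalization and with median centring and −0.0073 with a constant of 1. The constant moved Cdkn1a most: −1.56 and −1.43 with 1, −0.46 and −0.57 with 64 (L41275cds_s_at and U24174_at), because it compresses dim values.

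The number of these probe sets called was 0 in each setting but leaving out an antibody array. The calls there (all Cdkn1a) came in settings that also raised the calls over all probe sets, and nothing is read from them. Genes of the lists gave 0 calls by limma in every setting, with 0 to 6 at an unadjusted p under 0.05. Over all probe sets, against 14 calls, there were 0 with quantile normalization, 4 with median centring, 0 with no filter (where 702 had an unadjusted p under 0.05) and 0 to 153 with 1 array left out (0 without control replicate 1 or 2, 153 without antibody replicate 1, 93 without antibody replicate 2). At an unadjusted p under 0.05, 208 probe sets were higher and 217 lower as reported; median centring gave 135 higher and 273 lower, no filter 445 higher and 257 lower. The cause was not tested, except that a filter changes how many probe sets are tested and that a fit to 3 arrays has 1 residual degree of freedom and takes the spread of the single array's group from the other group. The labels give only replicate numbers and do not say whether these pair the arrays. Across 5244 probe sets the deviations of same-numbered arrays correlated at 0.0024, so no shared replicate deviation was seen. The replicate block gave 39 calls over all probe sets, 0 among the 17 (smallest adjusted p 0.0568 by limma). Without detection calls, signal over background is unknown, which limits Cdkn1b and the other dim probe sets most.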
